A study of Mus musculus with 8 samples.

Results

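The 39 genes described here are interferon-stimulated antiviral genes, a list written by name from what is known of the family. Earlier results of these data were known when the list was chosen, so the counts below describe it and do not test it. They were taken from the 27179 genes measured in the tumors, and all 39 passed the filter on low expression (at least 1 CPM, reads scaled to the size of the library, in at least 4 of the 8 tumors) that left 13262 genes for testing. The tumors were C26 colon carcinomas grown under the skin of male CD2F1 mice aged 13 to 18 weeks, and bulk RNA was sequenced from 4 tumors of each of 2 groups. The control group, cxC26 scr, was grown from cachexia-inducing C26 cells that carried Cas9 and a scrambled guide RNA. The knockout group, cxC26 IL6KOs1, was grown from a single subclone of the same line in which the gene for interleukin-6 had been disrupted with CRISPR/Cas9. By the labels the mice were kept until cachexia, the tumor-driven loss of body weight, had developed, and their day of collection is not given in the sources used here. The knockout group rested on 1 clone. Where other CD2F1 mice of the study reached cachexia, those given these cells had received more of them and reached it later than controls. The knockout, the clone, the cell dose and the age of the tumor therefore cannot be told apart. Interleukin-6 was disrupted only in the implanted cells, and the host cells in the tumor still carried the gene.

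Interferons are cytokines, and those of type I are released by cells that sense foreign or misplaced nucleic acid. Type I interferons bind the receptor pair IFNAR1 and IFNAR2, and the kinases JAK1 and TYK2 then activate a complex that holds STAT2 and IRF9 and binds the interferon-stimulated response element (ISRE) in the promoters of many genes. The products of those genes block the entry, translation or replication of viruses, and in tumors they are expressed by malignant cells as well as by leukocytes and stroma. Interferon gamma uses another receptor and acts mainly through a different element called GAS.

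Promoters are shown for some of the genes with the strongest increases, since the ISRE is the element through which interferon is known to act on this family. RefSeq promoter sequences (GRCm38.p6) were found for 29 of the 39 genes by gene identifier. The ISRE core was searched as GAAANNGAAA on both strands of the 250 bases before the annotated start. It was present in 11 of the 29 promoters (37.9%), against 936 of 27025 promoters of all genes with an entry (3.46%) and 3.25% of those of tested genes. A wider form, GAANNNGAA, which every ISRE core also matches, occurred in 62.1% of the members' promoters and 20.4% of all. The GAS core, TTCNNNGAA, was found in 5 of the 29 (17.2%) and in 8.13% of all promoters. The following lines give, 5′ to 3′ on the strand of the gene, the 250 bases before the start of the 3 genes with the largest increase among those with an ISRE core, and of Ifi44, the gene with the largest increase among those without one. Isg15 was added after its values were seen, with 120 bases, because its 3 overlapping cores show the repeated form of the element. Capitals mark the ISRE core.
Oas3 (chr5:120777660-120777909, minus strand): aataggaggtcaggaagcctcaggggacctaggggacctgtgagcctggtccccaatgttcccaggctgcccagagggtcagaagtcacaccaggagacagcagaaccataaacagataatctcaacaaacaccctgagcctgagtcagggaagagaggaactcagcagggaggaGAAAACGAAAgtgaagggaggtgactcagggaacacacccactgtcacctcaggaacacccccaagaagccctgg
Oas1g (chr5:120887614-120887863, minus strand): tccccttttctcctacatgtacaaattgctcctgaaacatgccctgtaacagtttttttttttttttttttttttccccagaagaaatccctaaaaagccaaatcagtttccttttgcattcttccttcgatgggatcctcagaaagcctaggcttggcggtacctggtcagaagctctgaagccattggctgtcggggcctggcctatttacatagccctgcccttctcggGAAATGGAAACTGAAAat
Oas1a (chr5:120907526-120907775, minus strand): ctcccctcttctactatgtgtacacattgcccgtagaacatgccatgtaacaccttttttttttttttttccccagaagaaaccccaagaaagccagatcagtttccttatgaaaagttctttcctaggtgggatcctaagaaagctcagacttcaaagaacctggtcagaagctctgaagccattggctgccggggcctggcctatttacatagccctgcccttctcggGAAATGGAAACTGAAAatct
Isg15 (chr4:156200819-156200938, minus strand): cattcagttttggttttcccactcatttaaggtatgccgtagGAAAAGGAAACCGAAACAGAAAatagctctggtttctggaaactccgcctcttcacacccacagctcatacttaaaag
Ifi44 (chr3:151749911-151750160, minus strand): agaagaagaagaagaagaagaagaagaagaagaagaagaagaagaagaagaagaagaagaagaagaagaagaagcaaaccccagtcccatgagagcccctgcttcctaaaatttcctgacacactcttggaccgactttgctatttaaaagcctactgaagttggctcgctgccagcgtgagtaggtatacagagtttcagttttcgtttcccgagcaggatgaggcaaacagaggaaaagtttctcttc

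In Oas1g and Oas1a, neighbouring genes of the same cluster, 2 cores overlapped at the end nearest the start, with first bases at -18 and -12 in Oas1g and at -20 and -14 in Oas1a, counted back from -1, the base before the start. The single core of Oas3 began at -75, and the 3 of Isg15 at -78, -72 and -66. The 11 genes with a core were Oas3, Oas1g, Oas1a, Ifit3b, Ifit1, Rsad2, Ifit3, Isg15, Stat2, Bst2 and Trim30a. All 11 were higher in cxC26 IL6KOs1 tumors, with a median log2 fold change of 1.83. Of the 18 genes with an entry and no core, 15 were higher and the median was 0.70. The 10 genes without an entry were all higher, with a median of 1.48. The search required a fixed spacing. Repeats of GAAA spaced otherwise, such as those on the opposite strand of the Ifi44 promoter, were not counted. A match of letters is a description of the sequence, and binding was not measured.

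The targeted gene was checked first. Il6 was at 4.42, 4.33, 4.73 and 4.83 log2 CPM in cxC26 scr tumors 1 to 4 and at 1.99, 2.03, 2.46 and 2.04 in cxC26 IL6KOs1 tumors 1 to 4, a log2 fold change of -2.45 ± 0.16 (SE; limma adjusted p = 1.76e-06, n = 4 per group). Every knockout tumor was below every control tumor. Reads on genes ranged from 14158989 to 17048062 per tumor over both groups. As markers of colon carcinoma, Krt19 and Vil1 had 3 reads or fewer in every tumor and Epcam at most 14, whereas Krt20 was between 10.07 and 10.48 log2 CPM in all 8 tumors. Other epithelial genes differed between the groups, since Krt18 (3.20) and Cdh1 (1.46) were higher on the log2 scale in knockout tumors and Cdx2 had 17 to 34 reads in control tumors and 0 or 1 in knockout tumors (limma adjusted p = 3.02e-06, 0.00251 and 4.18e-05). Tumor 1 of each group stood apart from its group for many interferon-responsive genes, and the main counts are also given without it.

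Of the 39 interferon-stimulated genes, 36 were higher in cxC26 IL6KOs1 tumors at an adjusted p-value under 0.05 (limma, adjusted over all genes tested), 0 were lower and 3 were not called. Among all tested genes 19.1% were called higher and 20.7% lower. The median over the 39 was 1.38 on the log2 scale (range -0.21 to 2.93), whereas that of all tested genes was 0.00, and the mean difference exceeded 2-fold in 25 of them. In 27 of the 39 genes every knockout tumor was above every control tumor, which held for 17.8% of tested genes, and in none was every knockout tumor below. Without knockout tumor 1 the number called higher was 35 (18.3% of tested genes), without control tumor 1 it was 36 (19.2%), and without both it was 34 (19.7%). Against a minimum change of 2-fold rather than 0, the test called 2 of the 39, Oas3 and Oas1g, and 0.935% of tested genes. The p-values measure the spread between tumors of different mice within 1 experiment.

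**Figure D1:**
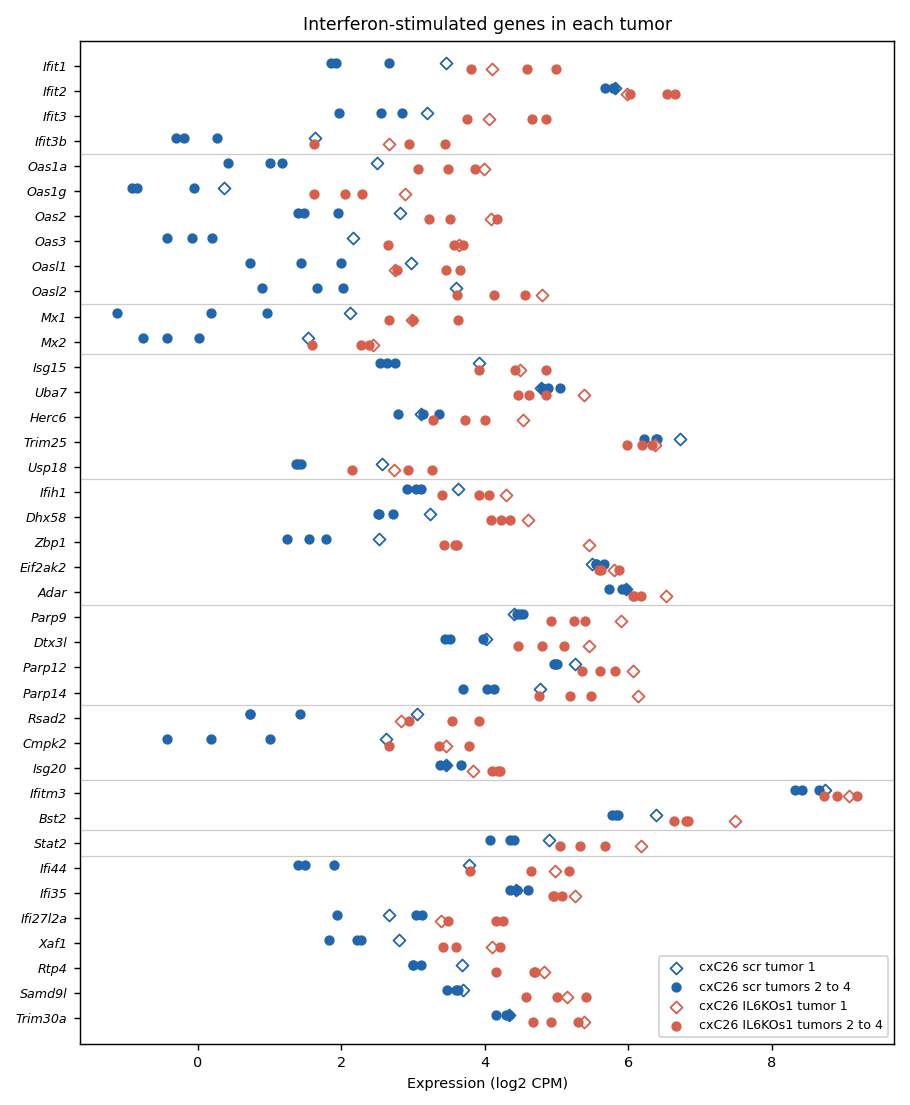
Expression of each of the 39 interferon-stimulated genes (vertical axis, grouped by role with lines between groups) in each tumor (horizontal axis, log2 CPM), with cxC26 scr in blue, cxC26 IL6KOs1 in orange and tumor 1 of each group as an open diamond. The groups do not overlap in 27 of the 39 genes, and the open blue diamond is the highest control value in 32.

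The OAS family, enzymes that make 2′-5′-linked oligoadenylates upon binding double-stranded RNA and so activate the nuclease RNase L, held Oas3 and Oas1g, the genes with the largest increases of the 39. All 6 members (Oas1a, Oas1g, Oas2, Oas3, Oasl1 and Oasl2) were higher, with a median log2 fold change of 2.28. Oas3, which binds long double-stranded RNA, was at 2.16, 0.19, -0.44 and -0.09 log2 CPM in control tumors 1 to 4 and at 3.64, 2.64, 3.57 and 3.70 in knockout tumors 1 to 4. The lowest knockout tumor, number 2, lay above the highest control tumor, number 1, and the log2 fold change was 2.93 ± 0.48 (SE; limma adjusted p = 0.000713). Oasl2, a family member with ubiquitin-like domains and the OAS gene with the most reads, was at 3.59, 2.02, 0.90 and 1.66 log2 CPM in the control tumors and at 4.80, 3.61, 4.12 and 4.55 in the knockout tumors. Its groups were also apart, though only narrowly between control tumor 1 and knockout tumor 2, and the log2 fold change was 2.23 ± 0.46 (SE; limma adjusted p = 0.00291). The log2 fold changes of Oas1a, Oas1g, Oas2 and Oasl1 lay between 1.38 and 2.58. Oasl1, which restrains translation of Irf7 mRNA, was the smallest of them (1.38 ± 0.40, SE) and the only OAS gene whose groups overlapped. Its call was lost without control tumor 4, knockout tumor 3 or knockout tumor 4. Oas1a and Oas1g shared 40.9% and 38.2% of the 100-base windows of their longest transcripts with each other. Some reads may therefore not tell the genes apart, and how such reads were counted was not examined.

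IFIT proteins restrict the translation of viral RNA, IFIT1 by binding caps that lack host methylation, and all 4 genes, which lie side by side on chromosome 19, were higher (median log2 fold change 1.79). Ifit3b was at 1.63, 0.27, -0.31 and -0.19 log2 CPM in control tumors 1 to 4 and at 2.66, 1.62, 2.95 and 3.44 in knockout tumors 1 to 4, a change of 2.32 ± 0.46 (SE; limma adjusted p = 0.00216). Control tumor 1 and knockout tumor 2 were at nearly the same level, and all other knockout tumors were above all control tumors. Ifit2, the IFIT gene with the most reads, was at 5.82, 5.79, 5.68 and 5.80 log2 CPM in the control tumors and at 5.98, 6.03, 6.53 and 6.65 in the knockout tumors. Here the control tumors hardly differed and the knockout tumors fell into a lower and a higher pair without overlap, with a change of 0.53 ± 0.14 (SE; limma adjusted p = 0.0130). Tested genes of chromosome 19 had a median log2 fold change of 0.33, and with the median of the chromosome subtracted in each tumor Ifit2 was no longer called (0.20, limma adjusted p = 0.312). Ifit1 and Ifit3 had log2 fold changes of 1.90 and 1.69. Ifit3 and Ifit3b are near copies and shared 31.7% and 27.4% of their windows, and Ifit1 and Ifit3b overlap the gene Ifit1bl1. No strand setting of the counting is given, so reads of overlapping genes are uncertain here and for 16 of the 39 genes in all.

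The MX proteins are dynamin-like GTPases that trap viral nucleocapsids, and many inbred mouse strains carry a defective Mx1 allele. Both genes were higher, with a median log2 fold change of 2.31. Mx1 was at 2.12, 0.96, -1.13 and 0.19 log2 CPM in control tumors 1 to 4 and at 2.98, 2.66, 3.00 and 3.62 in knockout tumors 1 to 4, a change of 2.53 ± 0.54 (SE; limma adjusted p = 0.00329). The knockout tumors lay close together, while the control tumors differed more than those of any other of the 39 genes, with an SD of 1.36 log2 units. Mx2 changed by 2.09 ± 0.44 (SE; limma adjusted p = 0.00327), also without overlap, with control tumor 1 (1.54) just under knockout tumor 2 (1.58).

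ISG15 is a ubiquitin-like protein that is attached to other proteins by the E1 enzyme UBA7 and the ligases HERC6 and TRIM25 and removed by USP18, which also blocks signalling at IFNAR2. Of these 5 genes 3 were higher, the median log2 fold change was 0.78 and the groups overlapped in all 5. Isg15 itself was at 3.92, 2.63, 2.75 and 2.54 log2 CPM in the control tumors and at 4.48, 3.91, 4.42 and 4.85 in the knockout tumors, a change of 1.46 ± 0.29 (SE; limma adjusted p = 0.00221). Control tumor 1 reached the level of knockout tumor 2, and the other control tumors were below all knockout tumors. Usp18 rose by 1.08 and Herc6 by 0.78, and Herc6 was not called without control tumor 4 or without both tumors numbered 1. Trim25, with the most reads of the 5, was at 6.72, 6.22, 6.38 and 6.40 log2 CPM in the control tumors and at 6.38, 5.99, 6.19 and 6.33 in the knockout tumors. Its difference of -0.21 (95% interval -0.47 to 0.05; limma adjusted p = 0.187) was not called. Uba7 was at 4.78, 4.87, 5.05 and 4.80 log2 CPM in the control tumors and at 5.38, 4.46, 4.61 and 4.85 in the knockout tumors. Knockout tumor 1 was above and knockout tumors 2 and 3 below all control tumors, and the difference was -0.05 (95% interval -0.43 to 0.33; limma adjusted p = 0.844).

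Among the sensors and effectors that bind foreign nucleic acid, 4 of 5 were higher (median log2 fold change 0.75). Zbp1, a sensor of Z-form nucleic acid that can trigger necroptosis, was at 2.52, 1.78, 1.54 and 1.25 log2 CPM in control tumors 1 to 4 and at 5.45, 3.59, 3.61 and 3.42 in knockout tumors 1 to 4, a change of 2.25 ± 0.42 (SE; limma adjusted p = 0.00139). The groups were apart, knockout tumor 1 was far above the rest, and without it the change was 1.77 (limma adjusted p = 0.000345). Dhx58, which encodes the RNA sensor LGP2, rose by 1.57 and Ifih1, which encodes MDA5, by 0.75, the latter with overlap. Adar, the RNA-editing enzyme that keeps host double-stranded RNA from being sensed, was at 5.97, 5.73, 5.92 and 5.96 log2 CPM in the control tumors and at 6.53, 6.07, 6.08 and 6.17 in the knockout tumors. This was the smallest called change (0.32 ± 0.11, SE; limma adjusted p = 0.0396) although the groups did not overlap, and it was not called without knockout tumor 1 (0.21, limma adjusted p = 0.0935). Adar was also not called without control tumor 2, 3 or 4, without knockout tumor 4, or with the median of chromosome 3 subtracted (0.14, limma adjusted p = 0.386). Eif2ak2, which encodes the kinase PKR that halts translation, was at 5.49, 5.55, 5.55 and 5.65 log2 CPM in the control tumors and at 5.81, 5.59, 5.61 and 5.87 in the knockout tumors. Control tumor 4 lay within the range of the knockout tumors, and the difference of 0.16 (95% interval -0.04 to 0.36; limma adjusted p = 0.197) was not called.

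Parp9, Dtx3l, Parp12 and Parp14 encode ADP-ribosyltransferases and the ubiquitin ligase that partners PARP9, and all 4 were higher (median log2 fold change 1.06). Parp14 was at 4.77, 4.13, 3.70 and 4.04 log2 CPM in the control tumors and at 6.14, 4.76, 5.19 and 5.48 in the knockout tumors, a change of 1.23 ± 0.28 (SE; limma adjusted p = 0.00447). Knockout tumor 2 was level with control tumor 1, and the other knockout tumors were higher. Parp12, with the most reads, was at 5.25, 5.01, 4.97 and 4.97 log2 CPM in the control tumors and at 6.06, 5.36, 5.61 and 5.81 in the knockout tumors, without overlap (0.66 ± 0.14, SE; limma adjusted p = 0.00337). Parp9 and Dtx3l, which overlap each other in the genome, rose by 0.90 and 1.21. All 4 were highest in knockout tumor 1 and lowest among knockout tumors in tumor 2.

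The nucleotide and RNA enzymes Rsad2, Cmpk2 and Isg20 were all higher. Viperin, the product of Rsad2, turns CTP into a chain terminator of viral polymerases, and Cmpk2, its genomic neighbour, encodes a nucleotide kinase. Cmpk2 was at 2.62, 1.01, -0.44 and 0.19 log2 CPM in the control tumors and at 3.46, 2.66, 3.37 and 3.78 in the knockout tumors, a change of 2.47 ± 0.53 (SE; limma adjusted p = 0.00342). Control tumor 1 came just under knockout tumor 2, and the other control tumors were far below. Rsad2 changed by 1.83 ± 0.46 (SE), with control tumor 1 (3.05) above knockout tumors 1 (2.83) and 2 (2.94). Isg20, an exonuclease of single-stranded RNA with the most reads of them, was at 3.46, 3.38, 3.67 and 3.45 log2 CPM in the control tumors and at 3.84, 4.10, 4.21 and 4.19 in the knockout tumors, and was apart by 0.59 ± 0.13 (SE; limma adjusted p = 0.00377).

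The membrane proteins Ifitm3, which hinders fusion of viruses in endosomes, and Bst2 or tetherin, which holds budding virions at the cell surface, were the most abundant of the 39 genes per length of exon. Bst2 was at 6.39, 5.83, 5.78 and 5.86 log2 CPM in the control tumors and at 7.48, 6.63, 6.83 and 6.81 in the knockout tumors, a change of 0.97 ± 0.18 (SE; limma adjusted p = 0.00147). Tumor 1 was the highest of each group, and the groups were apart. Ifitm3 was at 8.75, 8.67, 8.43 and 8.33 log2 CPM in the control tumors and at 9.07, 9.19, 8.91 and 8.73 in the knockout tumors. The highest control tumor just exceeded the lowest knockout tumor, and the change of 0.44 ± 0.12 (SE; limma adjusted p = 0.0159) was not called without control tumor 3 or 4. Per kilobase of annotated exon, Ifitm3 stood at 9.10 ± 0.20 (SD, n = 4) log2 CPM in control and 9.54 ± 0.20 in knockout tumors and Bst2 at 6.11 ± 0.28 and 7.09 ± 0.37, and they ranked first and second in both groups. On the same scale the lowest gene was Oas3 in the control tumors (-2.36 ± 1.16) and Mx2 in the knockout tumors (0.32 ± 0.40).

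Stat2, the subunit that brings the transactivating domain to the ISRE-binding complex, was at 4.90, 4.35, 4.07 and 4.40 log2 CPM in the control tumors and at 6.17, 5.32, 5.05 and 5.67 in the knockout tumors. The groups were apart, and the change was 1.12 ± 0.23 (SE; limma adjusted p = 0.00248). The remaining 7 genes (Ifi44, Ifi35, Ifi27l2a, Xaf1, Rtp4, Samd9l and Trim30a) were all higher, with no overlap between groups in any of the 7. Ifi44, whose function is not well known, was at 3.78, 1.90, 1.40 and 1.50 log2 CPM in the control tumors and at 4.98, 3.80, 4.64 and 5.18 in the knockout tumors, a change of 2.51 ± 0.47 (SE; limma adjusted p = 0.00147). Control tumor 1 was level with knockout tumor 2 and well above the other control tumors. Ifi35, the gene of the 7 with the most reads, was at 4.43, 4.61, 4.45 and 4.36 log2 CPM in the control tumors and at 5.26, 4.96, 4.94 and 5.07 in the knockout tumors, a smaller change (0.60 ± 0.11, SE; limma adjusted p = 0.00112) with a narrow spread in both groups. The log2 fold changes of the remaining genes ran from 0.79 for Trim30a to 1.55 for Xaf1.

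**Figure D2:**
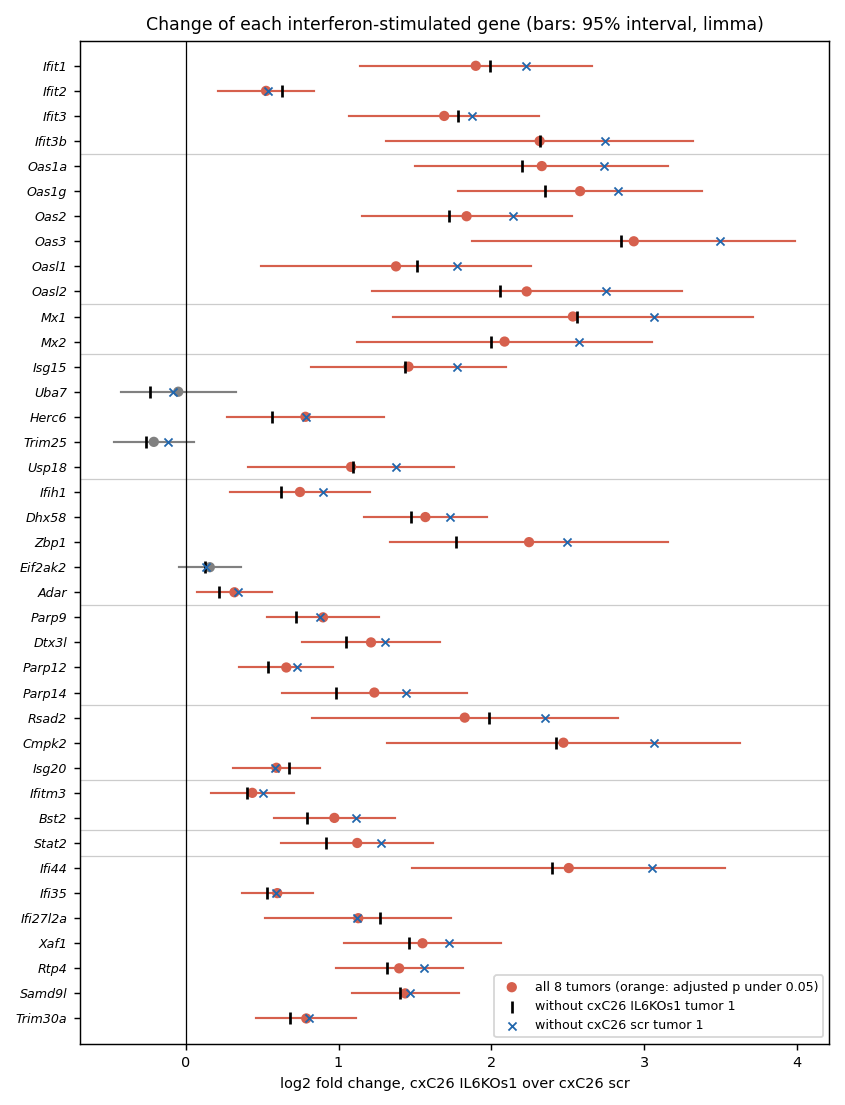
Log2 fold change of cxC26 IL6KOs1 over cxC26 scr (horizontal axis) for each of the 39 genes (vertical axis, same order), with 95% intervals from limma as bars, orange where the adjusted p-value is under 0.05 and grey otherwise. Black ticks give the value without knockout tumor 1 and blue crosses that without control tumor 1, and in 36 genes the bar lies above 0.

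The genes did not vary together in one order of the tumors. Control tumor 1 was the highest control tumor in 32 of the 39 genes and in 33.4% of all tested genes. Its level minus the mean of control tumors 2 to 4 had a median of 0.66 log2 units over the 39 genes and of 0.00 over all tested genes. With control tumor 1 set aside, every knockout tumor was above the remaining control tumors in 35 of the 39 genes and in 22.3% of tested genes. Of the 9 called genes whose groups overlapped, 8 (Ifit3b, Oasl1, Isg15, Usp18, Ifih1, Parp14, Rsad2 and Ifitm3, but not Herc6) no longer did. Setting aside the control that is highest in 32 of the 39 genes in itself removes overlap more readily there than over all tested genes. The counts without it therefore describe the 39 genes and do not test them. Within the knockout group tumor 2 was the lowest in 30 genes, and the share over all tested genes was not counted for this. The highest was tumor 1 in 20 genes, tumor 4 in 17, tumor 2 in Ifitm3 alone and tumor 3 in Isg20 alone, and over all tested genes tumors 1 and 4 were the highest in 28.0% and 26.4%. Tumor 4 was the highest for all 4 IFIT genes and for Oas2, Oas3, Oasl1, Mx1, Isg15, Usp18, Rsad2, Cmpk2, Ifi44, Ifi27l2a, Xaf1, Samd9l and Eif2ak2. Tumor 1 was the highest for all 4 PARP and DTX3L genes, for Stat2, Bst2 and Zbp1, and for 13 others. The median of the 39 genes, each relative to its own mean in the control tumors, was 1.52, 0.95, 1.41 and 1.58 log2 units in knockout tumors 1 to 4 and 0.49, -0.02, -0.25 and -0.22 in control tumors 1 to 4.

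Genes that respond foremost to interferon gamma were set beside them. Of 15 such genes 14 were tested and 10 were higher, with a median log2 fold change of 2.05. Knockout tumor 1 was the highest knockout tumor for all 14, and its level minus the mean of knockout tumors 2 to 4 had a median of 2.60 log2 units, against 0.36 for the 39 antiviral genes. Cxcl9, a chemokine that draws T cells, was at -0.31, 0.60, -0.92 and -0.86 log2 CPM in the control tumors and at 7.55, 0.76, 1.68 and 2.22 in the knockout tumors. Gbp2, a guanylate-binding protein, was at 2.83, 2.35, 1.77 and 2.04 log2 CPM in the control tumors and at 7.94, 3.93, 4.05 and 4.40 in the knockout tumors. Iigp1, an immunity-related GTPase, was at 2.22, 1.52, 0.72 and 1.43 log2 CPM in the control tumors and at 7.79, 2.74, 3.37 and 3.91 in the knockout tumors. In each of them the groups were apart and knockout tumor 1 exceeded the other knockout tumors by several log2 units, with log2 fold changes of 3.42, 2.83 and 2.98 (limma adjusted p = 0.0325, 0.00872 and 0.0164). The number of these genes called higher was 9 without knockout tumor 1 but 6 without control tumor 3 or control tumor 4, 5 with limma-voom weights and 5 with a stricter filter (a mean of at least 3 log2 CPM).

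**Figure D3:**
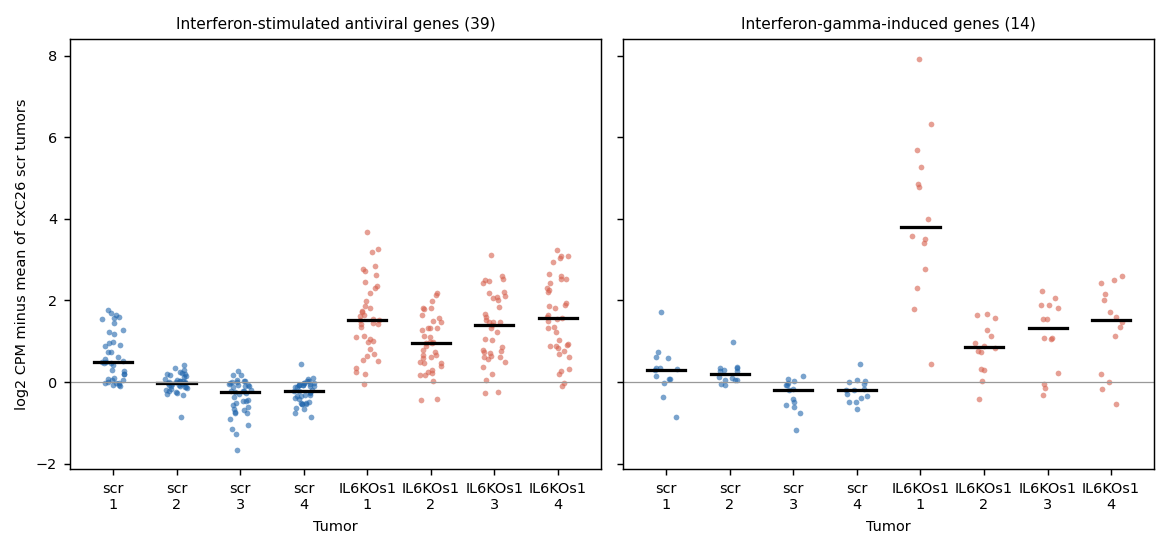
Level of each gene in each tumor minus its mean in the 4 cxC26 scr tumors (vertical axis, log2 CPM), for the 39 interferon-stimulated antiviral genes (left) and the 14 tested interferon-gamma-induced genes (right), with 1 point per gene and black bars at the medians. Knockout tumors 1 to 4 have medians of 1.52, 0.95, 1.41 and 1.58 on the left and of 3.79, 0.85, 1.32 and 1.53 on the right.

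The rest of the interferon pathway was read from lists that share no gene with the 39. Of 114 genes on these lists 88 were tested, and 46 were higher and 8 lower. Over all tested genes 19.1% were called higher and 20.7% lower, and the count of each list is to be read beside these shares. Most of the calls were in genes that interferons induce, namely the 15 gamma-induced genes described above and 49 further interferon-stimulated genes, and the lists that lie upstream are given first. Interferon genes themselves were hardly detected. None of 21 ligand genes passed the filter, 18 had 3 reads or fewer in every tumor, Ifna5 had at most 4 and Ifne at most 8. Ifnb1 had 0, 0, 0 and 1 reads in control tumors 1 to 4 and 0, 1, 1 and 2 in knockout tumors 1 to 4, so a difference between groups was not detectable at this depth, where a count of 0 allows up to 3 reads. Ifng had no read in any control tumor and 33, 0, 1 and 2 reads in knockout tumors 1 to 4. Nearly all reads of Ifng thus came from knockout tumor 1, the tumor with the highest levels of the gamma-induced genes.

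Of 5 tested receptor genes 3 were higher, or 2 with the replicate block, quantile normalization, no filter on low values or any 1 tumor but knockout tumor 2 left out. Ifnar2, the type I receptor subunit that binds interferon most tightly, was at 5.19, 5.43, 5.03 and 5.21 log2 CPM in the control tumors and at 5.91, 5.59, 5.85 and 5.59 in the knockout tumors (0.52 ± 0.11, SE; limma adjusted p = 0.00367). Ifngr1, the ligand-binding chain of the gamma receptor, rose by 0.75 and Il10rb, which is shared with the lambda receptor, by 0.29 (limma adjusted p = 0.0486, just under the threshold), whereas Ifnar1 (0.05) and Ifngr2 (-0.17) were not called. Ifnlr1 had at most 7 reads. Among the genes that carry the signal from the receptors, the kinases Jak1 (0.04), Tyk2 (-0.14) and Jak2 (-0.13) were not called. Irf9, the partner of Stat2, rose by 0.78 ± 0.17 (SE; limma adjusted p = 0.00424).

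Of 11 genes that act between the sensing of nucleic acid and the making of interferon, 4 were higher and 2 lower. The shares over all tested genes were 19.1% and 20.7%. Irf7, the factor that amplifies interferon production and is itself interferon-stimulated, was at 4.72, 2.84, 2.54 and 2.52 log2 CPM in the control tumors and at 4.92, 4.71, 5.40 and 5.61 in the knockout tumors. Control tumor 1 was at the level of knockout tumor 2, about 2 log2 units above the other control tumors, and the change was 2.01 ± 0.42 (SE; limma adjusted p = 0.00293). The endosomal receptors Tlr3 (1.11), Tlr7 (0.99) and Tlr9 (1.11, limma adjusted p = 0.0404) were higher too. Irf3, the factor that starts the response, fell by 0.39 and Sting1, the adaptor of cytosolic DNA sensing, fell by 0.37, each with every knockout tumor below every control tumor. Rigi (0.34), Mavs (0.21), Cgas (0.09), Tbk1 (0.21) and Ikbke (-0.21) were not called. Among 7 negative regulators, the phosphatase gene Ptpn6 (1.22) and the nucleotide hydrolase gene Samhd1 (0.75) were higher and Socs3, a STAT3 target that dampens signalling by interleukin-6, was lower (-0.86 ± 0.16, SE; limma adjusted p = 0.00127). Socs1 (0.22), Ptpn2 (0.15), Trex1 (0.21) and Irf2 (-0.01) were not called.

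Among 49 further interferon-stimulated genes, 46 were tested, 25 were higher and 5 lower (median log2 fold change 0.52). Apol9a and Apol9b, apolipoprotein L genes with near-identical sequences, had the largest increases with log2 fold changes of 3.74 ± 0.50 and 2.65 ± 0.44 (SE), followed by Phf11b with 2.24 ± 0.35. Apol9a was at 1.54, -0.26, -1.37 and -0.30 log2 CPM in the control tumors and at 4.35, 3.11, 3.66 and 3.43 in the knockout tumors. As in many of the 39 genes, control tumor 1 was the highest control, and the groups were apart. The 5 lower genes, named after their values were seen, were Ifi203 (-1.40), Ifi207 (-1.37), Ifi204 (-0.77), Ifi211 (-0.77) and Slfn9 (-0.64). All but Slfn9 belong to the PYHIN family of DNA-binding proteins, of which Ifi209 was higher (1.78) and Ifi205 was not called (0.54).

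**Figure D4:**
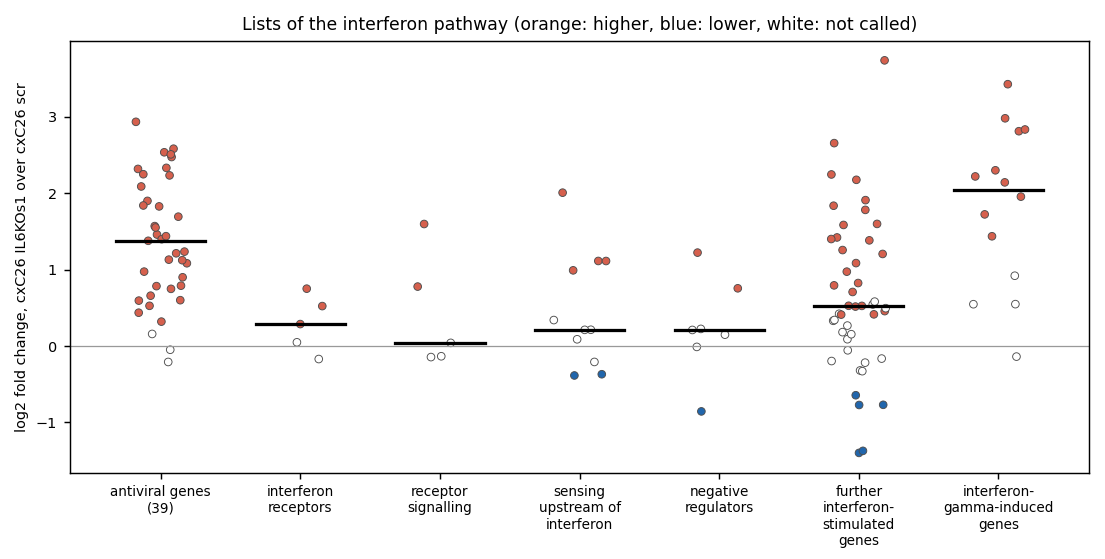
Log2 fold change of cxC26 IL6KOs1 over cxC26 scr (vertical axis) for the tested genes of each list (horizontal axis), 1 point per gene, orange where higher and blue where lower at an adjusted p-value under 0.05 (limma) and white where not called, with black bars at the medians. The medians are 1.38 for the 39 antiviral genes and 2.05 for the gamma-induced genes, and between 0.04 and 0.52 for the other lists.

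Markers of several, but not all, kinds of leukocytes were higher together with the 39 genes. All 7 macrophage and monocyte markers were higher, and their summed level was 476 to 618 CPM in control tumors and 1089 to 1953 CPM in knockout tumors, with the highest value in knockout tumor 1. All 3 pan-leukocyte markers were higher (summed level 113 to 137 CPM against 198 to 430 CPM). All 4 tested T cell markers of 6 were higher at low levels (0.98 to 3.03 CPM against 8.59 to 16.0 CPM), with Cd8a at 0, 3, 1 and 1 reads in control tumors and 92, 26, 48 and 56 in knockout tumors. Jchain, a plasma cell marker, was higher. Its reads were 1, 15, 8 and 9 in control tumors and 957, 84, 264 and 62 in knockout tumors. The B cell marker Cd79a (0.29) and the NK cell marker Eomes (-0.43) were not called. Zbtb46, the only tested marker of 5 for conventional dendritic cells, was lower (-2.42, limma adjusted p = 6.95e-06). The untested Flt3, Xcr1, Clec9a and Cd209a went the other way, with mean differences of 1.43, 1.60, 0.46 and 0.42 log2 units. They had at most 36 reads in any tumor. Of the 5 neutrophil markers S100a8 alone was higher and Ly6g had at most 2 reads in any tumor. Of 5 markers of plasmacytoid dendritic cells, the main producers of interferon alpha, 2 were tested. Cox6a2 was higher (1.48, limma adjusted p = 0.0206). Tcf4, at 8.27 to 9.01 log2 CPM over the 8 tumors and thus far above the other markers, was lower (-0.37, limma adjusted p = 0.0153). The untested Siglech, Klk1 and Ccr9 had higher means in knockout tumors, by 1.25, 1.57 and 0.51 log2 units, with at most 21 reads in any tumor. None of 4 endothelial markers was called (89.1 to 137 CPM against 98.3 to 120 CPM), and of 5 fibroblast markers Lum was higher and Pdgfra lower. Control tumor 1, the control tumor with the highest level of most antiviral genes, was not the highest control for any pan-leukocyte marker and was so for 1 of the 7 macrophage and monocyte markers. It was the highest control for all 4 endothelial markers, with a median of 0.59 log2 units above the mean of control tumors 2 to 4, and for 3 of the 5 fibroblast markers (Col1a1, Col1a2 and Lum), with a median of 0.70 over the 5. The part of these cells in the members' change was not tested, and in bulk samples more cells of a type and more RNA per cell cannot be told apart.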

How the data were processed

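RNA sequencing of 8 tumors, 4 cxC26 scr and 4 cxC26 IL6KOs1, was analysed, with groups and replicate numbers taken from the sample titles. The authors aligned reads to mm10 (GRCm38) with HISAT2, counted them on genes and deposited log2 CPM per gene and tumor as limma-voom gives them. The submitters' processing notes also name bcl2fastq 2.17, and the annotation and the strand setting are not given in the sources used here. Whole reads were recovered from the deposited log2 values (offset 0.5 reads, tolerance 0.02), 100% of values came out whole, and totals were 14158989 to 17048062 reads per tumor. With recovered reads available, limma-voom weights were an alternative, and the main test stayed on the log2 values.

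The 13262 genes that reached 1 CPM in 4 or more tumors were tested with limma 3.58.1 in R 4.3.3 (lmFit, eBayes with trend, no covariates) and p-values were adjusted by Benjamini-Hochberg over all of them, with a threshold of 0.05. The script was tested on simulated data. Fold changes are on the deposited log2 scale, whose offset understates changes of low genes.

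Motifs were counted in RefSeq promoters of GRCm38.p6 and shared windows of 100 bases and exon lengths were computed from GENCODE M21. The authors' gene names were used, and Rigi, Cgas, Sting1 and Ifi211 were matched from older symbols.

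The 39 genes and all lists were chosen with earlier results of these data known. Values per tumor were given for the member of each role with the largest called change, the one with the most reads and those not called higher. For the pathway, all genes of short lists and the 3 largest called changes without overlap of longer lists were named, with per-tumor values for part of them. Further genes are named as chosen later. Alternatives were other filters, scalings, variance models and pseudocounts, a 2-fold minimum, a replicate block, chromosome centring and each tumor left out. Leaving out both tumors numbered 1 was added after seeing the data. Some genes of the lists are not reported here.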

Additional observations from a re-analysis of the deposited data

Results flagged for a closer look

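Each tumor was compared with its 3 group mates in the 256 groups of 4 tumors formed by the 39 antiviral genes, the tested genes of the pathway lists and Il6. In 28 of them the gap between the most extreme tumor and its nearest neighbour was a larger part of the group's range than the critical value of Dixon's test, where chance gives about 1 in 20, or 12.8. Of the 28, 15 were knockout tumor 1 and 8 were control tumor 1. All values are log2 CPM.

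Among the antiviral genes, control tumor 1 was high for Isg15 (3.92, others at most 2.75), Usp18 (2.56, others at most 1.44), Parp12 (5.25, others at most 5.01), Bst2 (6.39, others at most 5.86) and Rtp4 (3.68, others at most 3.11). Knockout tumor 1 was high for Zbp1 (5.45, others at most 3.61), and knockout tumor 2 was low for Oas3 (2.64, others at least 3.57).

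In the pathway lists, control tumor 1 was also high for Irf7 (4.72), Ifi209 (0.55) and Lgals3bp (5.91). Knockout tumor 1 was high for the signalling and regulatory genes Jak2 (7.43), Irf9 (5.56) and Samhd1 (7.65), and for the interferon-stimulated genes Ifi47 (6.49), Irgm1 (6.66), Trim21 (4.22) and Parp10 (5.55). It was high as well for the gamma-induced genes Ciita (4.53), Gbp2 (7.94), Gbp4 (7.60), Gbp5 (5.41), Igtp (6.52), Psmb9 (6.39) and Cd274 (5.97). Of the others, control tumor 4 was low for Il10rb (4.49), control tumor 3 for Irf1 (5.46) and knockout tumor 2 for Slfn5 (4.93). Knockout tumor 3 was high for Il6 (2.46, others at most 2.04), at a level far under the lowest control tumor (4.33).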

How the results depend on the processing

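The number of the 39 genes called higher was 36 with quantile normalization, re-centring on sample medians, limma-voom weights or log2(CPM + 1), with no change of direction under these. With a minimum change of 2-fold the counts were 2 of the 39 genes, 124 higher and 127 lower among all genes, and 1 higher and 0 lower in the pathway lists, since that test asks for more than a difference from 0. With each tumor left out in turn, 32 to 36 of the 39 were higher and 0 lower, 2023 to 2540 genes were higher and 2193 to 2674 lower in all, and 37 to 50 pathway genes were higher and 8 to 9 lower. Only Uba7 changed sign among the 39, to 0.0095 without control tumor 3, 0.073 without knockout tumor 2 and 0.023 without knockout tumor 3, its range with 1 tumor left out being -0.23 to 0.073 and its value without both tumors numbered 1 being -0.27, and it was not called under any of these. Calls lost with 1 tumor left out were those of Adar, Ifitm3, Oasl1 and Herc6, and no filter on low values or no variance trend also lost Adar. A stricter filter left 27 of the 39 genes, and their calls were as before.

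Replicate numbers did not pair the tumors, since deviations of same-numbered tumors from their group means correlated at -0.06, 0.06, 0.02 and -0.06 across genes. With the replicate number as a block, 36 of the 39 genes, 44 pathway genes and 2477 of all genes were higher, and 0, 9 and 2688 were lower. Low genes limit the precision, as Mx1 had 6 reads in 1 control tumor, and depth did not allow a comparison of interferon genes.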
